A study of Naumovozyma castellii with 14 samples.

Results

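The 33 genes annotated on the mitochondrial chromosome (chrmt) of the budding yeast Naumovozyma castellii are described here, out of 8343 distinct features measured. They are every row placed on that chromosome: 8 messenger RNAs (mRNAs), 23 transfer RNAs (tRNAs) and 2 ribosomal RNAs (rRNAs), with 32 on the plus strand and 1, tRNA-25248, on the minus strand. No measured value was used to choose them. The rows were set beside the 8310 nuclear features, among them 5591 mRNAs, 279 tRNAs and 10 rRNAs. The annotation gives the tRNAs and rRNAs no gene name, so each is called by its type and its start position on chrmt. Neither the labels nor the table names a genome build.

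Strand-specific total RNA sequencing was made for 14 libraries in 5 groups. The dcr1 upf1 group (2 libraries) lacks both Upf1, an RNA helicase that nonsense-mediated mRNA decay needs, and the Dicer nuclease Dcr1 of RNA interference. The upf1 CHX group (2 libraries) is the upf1::kanMX6 strain treated with cycloheximide (CHX), an inhibitor of cytosolic ribosomes, at 100 µg/mL for 15 min, and the WT CHX group (2 libraries) is the wild type treated in the same way. The upf1 group (4 libraries) and the WT group (4 libraries) are the same strains without the drug. All groups carry MATalpha ura3-1 ho and were grown in rich medium at 25 °C to an optical density of 0.5. Each genotype is 1 strain, and nothing in the labels says whether the libraries of a group came from separate cultures, so p-values measure the spread between these libraries, which may be technical. NAM7, which encodes Upf1, had 0 reads in every dcr1 upf1, upf1 CHX and upf1 library, against 2584 and 2335 reads in WT CHX and 1074 to 1601 in WT.

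Yeast mitochondrial genomes keep a handful of genes for the core of the respiratory chain. In S. cerevisiae a phage-like RNA polymerase transcribes them into long precursors, from which tRNAs, rRNAs and mRNAs are cut. The mRNAs are read by mitochondrial ribosomes inside the organelle, which cycloheximide does not inhibit, whereas nonsense-mediated decay and cycloheximide act on cytosolic translation. COX1, COX2 and COX3 encode the core subunits of cytochrome c oxidase, COB encodes cytochrome b of the bc1 complex, ATP6, ATP8 and ATP9 encode membrane subunits of ATP synthase, and VAR1 encodes a protein of the small mitochondrial ribosomal subunit.

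In order along chrmt, the protein genes were COX3 at positions 507 to 1316, VAR1 at 3857 to 4837, COB at 5489 to 6661, COX1 at 9644 to 12858, ATP8 at 13285 to 13431, ATP6 at 13837 to 14616, ATP9 at 15095 to 15328 and COX2 at 15888 to 16637. The rRNA features were rRNA-18130 at 18130 to 19722 and rRNA-20319 at 20319 to 23956. Each row is a gene as annotated, with no exons or UTRs given. The length of COX1, 3215 nucleotides, is the only one of the 8 mRNA lengths that is not a multiple of 3. The deposited value is a read density, that is, reads scaled for the library's depth and then divided by the length of the gene. Densities therefore allow for the annotated length of a gene. Whether short and long RNAs, or the depleted rRNAs, were captured alike was not tested, so levels set side by side between genes and types are descriptive. Fold changes are relative to the deposited scaling, which the values show to be that of the small nucleolar RNAs.

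Steady-state density differed widely among these genes in WT. ATP9 had 54.3, 51.7, 30.6 and 37.3 reads per nucleotide in WT replicates 1 to 4, a mean of 43.5 ± 11.4 (SD, n = 4), above 99.2% of nuclear mRNAs. COX2, COB, COX1 and COX3 averaged 4.85 ± 3.60, 4.43 ± 1.50, 3.23 ± 1.73 and 2.95 ± 1.66 (SD, n = 4 each), above 95.3%, 94.99%, 93.6% and 93.1% of nuclear mRNAs. ATP6 and ATP8 were lower, at 0.384 ± 0.073 and 0.369 ± 0.122 (SD, n = 4 each), above 62.6% and 61.5% of nuclear mRNAs. The median of the 8 mitochondrial mRNAs was 3.09, against 0.257 for the nuclear mRNAs. ATP6, ATP8 and ATP9, whose products sit in the same enzyme, thus held the highest level and the lowest 2 among the 7 mRNAs that were tested.

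VAR1 was barely covered. It had 17 reads over all 14 libraries, between 0 and 2 in each, and its highest density in any library was 0.00281. In 3 libraries (WT CHX replicate 2 and WT replicates 2 and 4) it had 0 reads, where 3 reads would have given a density of 0.00315 to 0.00456. The limit covers counting error only. VAR1, tRNA-4940 and tRNA-20085 did not reach the mean density of 0.02 that was set for testing, so 30 of the 33 members were tested.

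The longer rRNA feature took most of the mitochondrial reads. rRNA-20319 had 24.0, 20.2, 12.6 and 15.8 reads per nucleotide in WT replicates 1 to 4, and it made up 51.8% to 67.7% of all chrmt reads over the 14 libraries. rRNA-18130 had 8.21, 7.33, 2.16 and 2.51 in the same WT libraries. Ribosomal RNA was depleted with a RiboMinus kit before library construction, per the labels' protocols, so rRNA levels are what was left after that step.

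The tRNAs spanned a wide range. The highest mean densities in WT were those of tRNA-25470 (1.62), tRNA-2251 (1.23) and tRNA-17279 (0.907), and the lowest were those of tRNA-20085 (0.00464), tRNA-4940 (0.00823) and tRNA-25248 (0.0154), the single minus-strand gene. Of the 23 tRNAs, 4 were above 0.5 and 10 were below 0.1 in WT. Their median was 0.145, against 0.0840 for nuclear tRNAs. The 23 tRNAs together had 306 to 1354 reads per library, so single low tRNAs rest on a few reads.

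Density stepped down along 1 stretch of the genome. Among the 9 consecutive genes that start with tRNA-2251 and end with VAR1, mean density was lower at each of the 8 steps in WT. It was 1.23 at the first gene and 0.000879 at the last. The ends of this stretch were picked with these densities in view, so the descent is a description with no test. Several steps rest on few reads. Over the WT libraries tRNA-2926 had 8 reads, and tRNA-3153 and tRNA-3292 had 4 each. The same 8 steps went down 7 times in dcr1 upf1, 5 times in upf1 CHX, 6 times in WT CHX and 7 times in upf1. COB, which lies downstream of VAR1 and tRNA-4940, was back at 4.43 in WT. The plot of WT densities along the genome shows this stretch beside the high values at ATP9 and rRNA-20319.

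**Figure D1:**
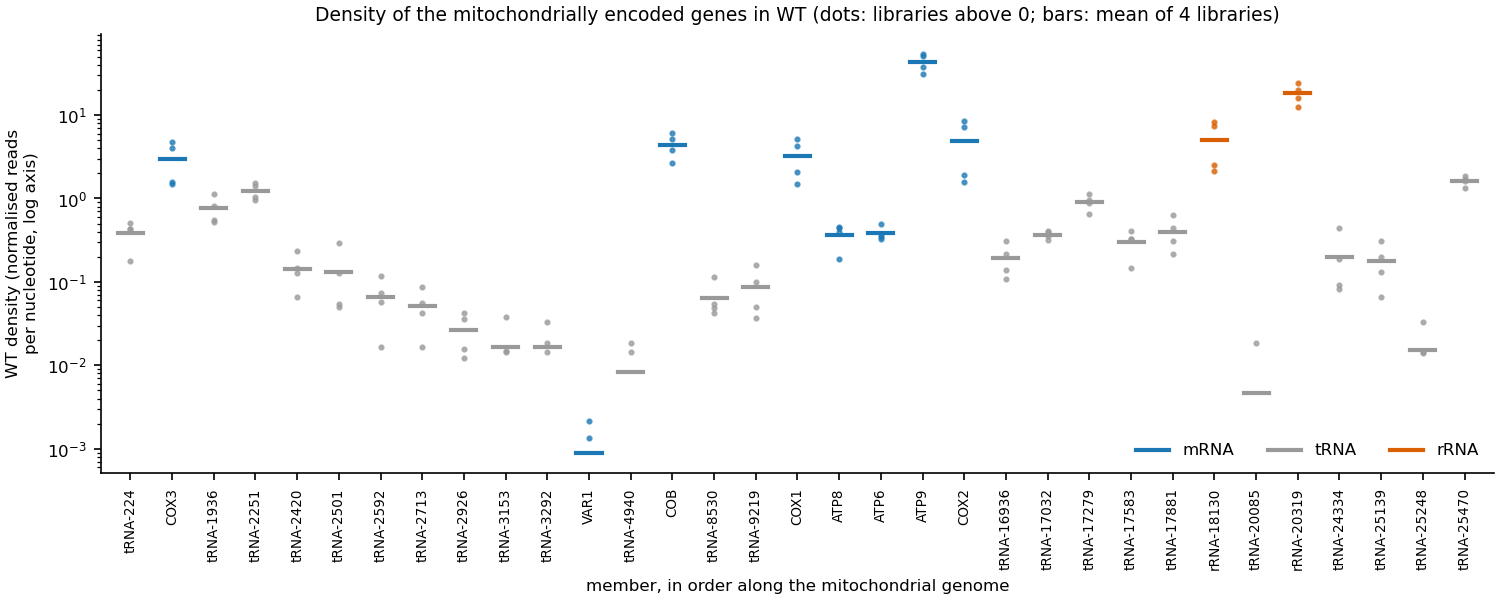
Density of each mitochondrially encoded gene in WT (normalised reads per nucleotide, log axis), in order along chrmt. Dots are the WT libraries with a value above 0, bars the mean of the 4 libraries, and colour marks the type. ATP9 stands at 43.5 and VAR1 at 0.000879, and the genes between tRNA-2251 and VAR1 step down.

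Total reads ranged from 7895089 to 22437334 per library, and reads on chrmt from 50492 to 236997. The mitochondrial share of a library was 1.06% and 1.03% in dcr1 upf1, 0.590% and 0.604% in upf1 CHX, 0.726% and 0.761% in WT CHX, 0.983%, 1.12%, 0.799% and 0.707% in upf1, and 1.26%, 1.27%, 0.640% and 0.736% in WT. The 95% Wilson interval of each share is at most 0.00704 percentage points to either side and covers counting error only. The shares of WT and upf1 fell into a higher pair, replicates 1 and 2, and a lower pair, replicates 3 and 4. In bulk RNA, fewer mitochondrial genomes per cell and less RNA per genome cannot be told apart.

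Counted against nuclear mRNA reads, mitochondrial mRNA reads showed a similar split. They were 0.496 and 0.486 per 100 nuclear mRNA reads in dcr1 upf1, 0.281 and 0.296 in upf1 CHX, 0.293 and 0.307 in WT CHX, 0.447, 0.486, 0.285 and 0.230 in upf1, and 0.481, 0.493, 0.203 and 0.236 in WT. Both drug-treated groups lay below replicates 1 and 2 of their untreated strain. WT CHX lay above WT replicates 3 and 4, while the upf1 CHX values lay around and above those of upf1 replicates 3 and 4. Nuclear rRNA, which the depletion was meant to remove, also varied, with 0.0519% and 0.0856% of reads in dcr1 upf1, 0.0649% and 0.0490% in upf1 CHX, 0.796% and 0.707% in WT CHX, up to 0.536% in upf1 and up to 2.17% in WT.

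**Figure D2:**
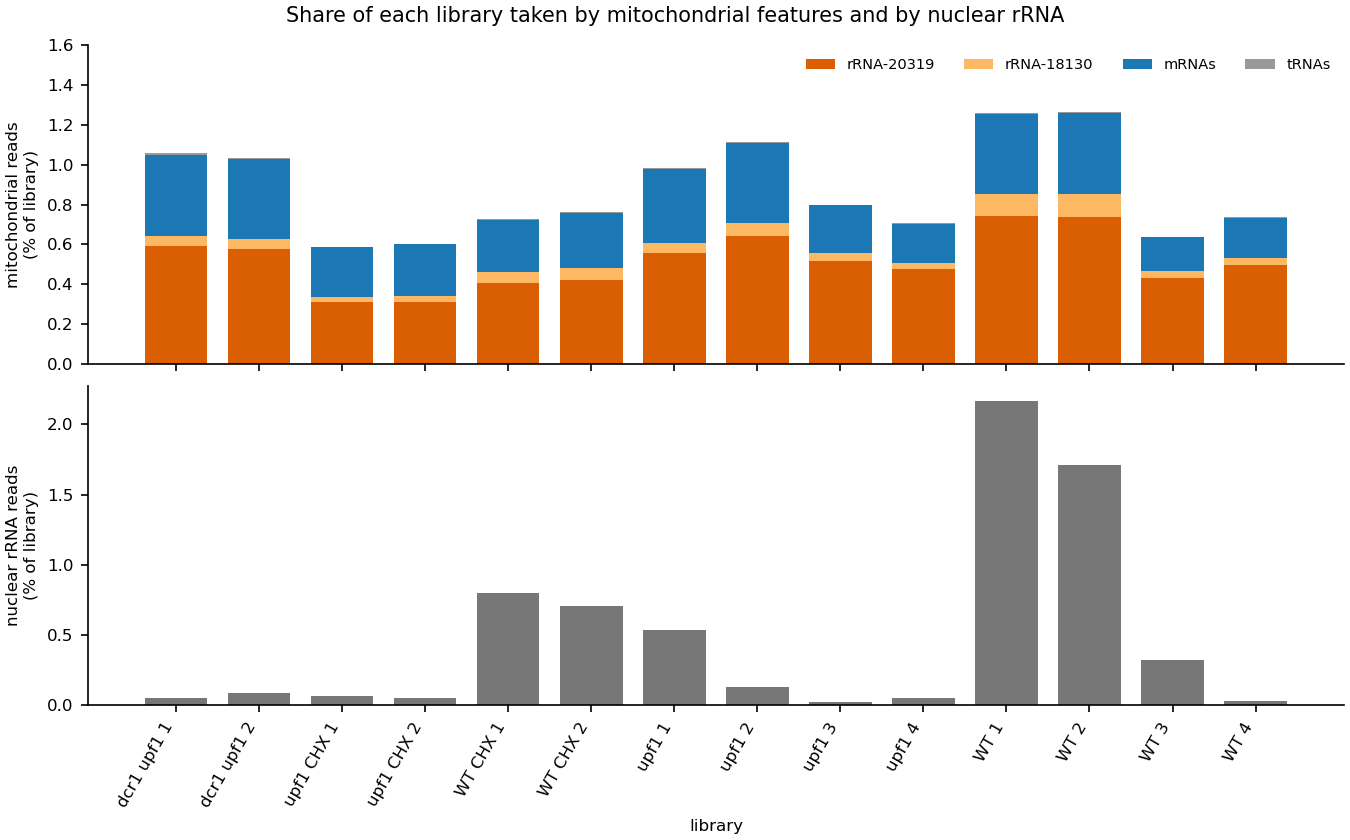
Upper panel: percent of each library's reads on mitochondrial rRNA-20319, rRNA-18130, mRNAs and tRNAs, stacked. Lower panel: percent on nuclear rRNA. Bars are single libraries. WT replicates 1 and 2 have the largest mitochondrial shares (1.26% and 1.27%) and the largest nuclear rRNA shares (2.17% and 1.71%).

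Replicates 1 and 2 and replicates 3 and 4 of an untreated strain differed widely in several mitochondrial genes, and the labels do not say what distinguishes the pairs. COX2 had 2.67 and 2.08 reads per nucleotide in upf1 replicates 3 and 4, against 6.32 and 7.08 in upf1 replicates 1 and 2. It had 1.59 and 1.93 in WT replicates 3 and 4, against 8.57 and 7.29 in WT replicates 1 and 2. On the log2 scale replicates 3 and 4 were lower by 1.50 in upf1 and by 2.16 in WT. The pairs did not overlap in either strain.

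The genes differed in how far they followed that split. For COX3 the difference of replicates 3 and 4 from 1 and 2 was −1.13 in upf1 and −1.49 in WT on the log2 scale, and for COX1 it was −0.83 and −1.39. COB (−0.37 and −0.81) and ATP9 (−0.36 and −0.65) moved less. ATP6 (−0.24 and −0.15) and ATP8 (0.09 and 0.52) differed less still or in the other direction. The ratio of COX2 to COB density was 0.501 and 0.490 in upf1 replicates 3 and 4, against 1.06 and 1.11 in replicates 1 and 2. In WT it was 0.597 and 0.508 in replicates 3 and 4, against 1.40 and 1.42 in replicates 1 and 2. The ratio in the groups that have replicates 1 and 2 alone ran between 0.943 and 1.18.

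Both rRNA features were lower in WT replicates 3 and 4 than in 1 and 2, by 1.73 for rRNA-18130 and by 0.64 for rRNA-20319 on the log2 scale, and in upf1 the differences were −0.51 and −0.07. Among the tRNAs, tRNA-2501 (−1.01 in upf1 and −1.56 in WT) and tRNA-25139 (−1.21 and −1.24) were lower in replicates 3 and 4, while tRNA-2251 (0.29 and 0.54) was higher. In all, 4 of the 30 tested members were at least 2-fold lower in replicates 3 and 4 in both strains, a share that was 0.665% over all tested features, and 11 of 30 lay below without overlap in both strains, against 5.12% over all features. The median difference over the 30 members was −0.71 in upf1 and −0.66 in WT, while nuclear mRNAs had medians of 0.27 and 0.06. By type it was −0.37 and −0.81 for the mitochondrial mRNAs. The mitochondrial tRNAs had −0.88 and −0.65, against −0.21 and 0.16 for nuclear tRNAs. The split was not limited to mitochondrial genes, since the 10 nuclear rRNAs had medians of −2.06 and −1.62. Of these, 5 were at least 2-fold lower and 6 lay below without overlap in both strains. These are descriptions of the libraries, with no test, since the labels define no such groups. The drug-treated and dcr1 upf1 groups hold replicates 1 and 2 alone, so the comparisons of mitochondrial genes with upf1 or WT below are also given within replicates 1 and 2.

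**Figure D3:**
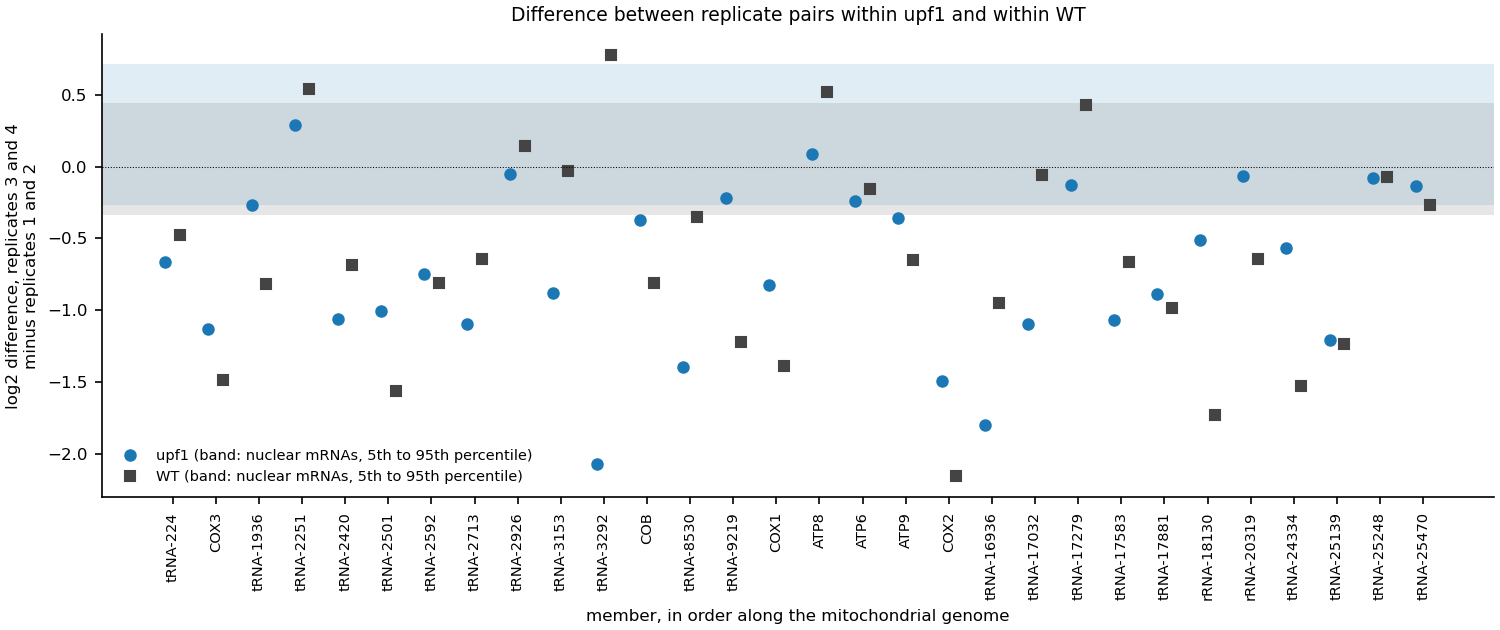
Difference of replicates 3 and 4 from replicates 1 and 2 on the log2 scale, for each tested mitochondrial gene in order along chrmt, in upf1 (circles) and WT (squares). The shaded bands hold the 5th to 95th percentile of nuclear mRNAs. COX2 lies at −1.50 in upf1 and −2.16 in WT, well below both bands, while ATP6 lies inside them.

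The first comparison asked what loss of Upf1, which acts on transcripts read by cytosolic ribosomes, did to the mitochondrial genes. None of the 30 tested members passed in upf1 against WT with all replicates (limma on log2 of density plus 0.02, Benjamini-Hochberg adjusted p under 0.05 over 7518 features), while 40.5% of all features were called higher and 0.585% lower. At an unadjusted p under 0.05 there was 1 member, and voom on the recovered reads also called 0. The mitochondrial mRNAs had a median log2 fold change of 0.20, the same as the 0.20 of nuclear mRNAs, and ranged from −0.12 for COX3 to 0.36 for COB. COB had 5.94, 6.38, 5.33 and 4.25 reads per nucleotide in upf1, against 6.10, 5.13, 2.67 and 3.81 in WT. The groups overlapped, and the difference was 0.36 ± 0.21 (log2, SE) with an adjusted p of 0.207.

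The tRNAs ranged more widely and without a call. The 3 largest log2 fold changes in upf1 against WT were those of tRNA-24334 (0.67), tRNA-2713 (0.60) and tRNA-2926 (0.58), and the 3 smallest those of tRNA-8530 (−0.79), tRNA-9219 (−0.52) and tRNA-224 (−0.50). Their median was 0.05, against 0.10 for nuclear tRNAs.

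Within each pair of replicates, members were called between upf1 and WT, but not the same ones. With 2 libraries per group, limma's robust fit leaned on the spread of features of like density to an extent that differed between genes. The prior degrees of freedom were finite for 23 of the 30 members in replicates 1 and 2. In replicates 3 and 4 they were finite for 19 of 30. They were infinite for the others, whose own spread did not enter. Finite values could still be large, as for rRNA-18130 in replicates 1 and 2 and tRNA-24334 in replicates 3 and 4. The own spread of such members entered little. Very small p-values within a pair are to be read with that limit. In replicates 1 and 2 alone 6 of 30 were called higher and 4 lower, against 37% and 4.35% of all features. The 4 lower ones were rRNA-18130, rRNA-20319, COX3 and tRNA-224, and the 6 higher ones were tRNA-2251, tRNA-2926, tRNA-3153, tRNA-3292, tRNA-16936 and tRNA-17032. In replicates 3 and 4 alone 7 were called higher and 4 lower, against 40.2% and 1.1% of all features. COB (0.57), COX1 (0.44), COX2 (0.42), ATP9 (0.39) and rRNA-20319 (0.29) were higher there, along with tRNA-1936 (0.68) and tRNA-24334 (1.15), and tRNA-8530, tRNA-3292, tRNA-17032 and tRNA-17279 were lower. rRNA-20319, tRNA-3292 and tRNA-17032 were thus called in opposite directions in the 2 pairs. For tRNA-3292 both calls rest on a few reads. It had 5 and 9 in upf1 replicates 1 and 2, against 1 and 0 in WT. In replicates 3 and 4 it had 0 and 0 in upf1, against 1 and 2 in WT. tRNA-8530 had 0 and 1 reads in upf1 replicates 3 and 4, against 3 and 3 in WT.

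A term for the replicate pairs in the fit over all replicates left 5 members higher and 0 lower (46.1% and 1.17% of all features). They were COB (0.36), ATP6 (0.25), ATP9 (0.25), tRNA-1936 (0.40) and tRNA-2251 (0.33). ATP6 had 0.500, 0.496, 0.442 and 0.397 reads per nucleotide in upf1, against 0.491, 0.328, 0.369 and 0.350 in WT, and the groups overlapped through WT replicate 1. With the replicate number as a block, 4 members were called higher and 0 lower (45.2% and 1.21% of all features). Relative to nuclear mRNAs, 0 were called higher and 2 lower (29.9% and 23.8% of all features).

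rRNA-18130 separated the strains in replicates 1 and 2. It had 3.48 and 4.51 reads per nucleotide in upf1 replicates 1 and 2, against 8.21 and 7.33 in WT replicates 1 and 2, and 2.90 and 2.66 in upf1 replicates 3 and 4, against 2.16 and 2.51 in WT replicates 3 and 4. The log2 difference was −0.97 ± 0.12 (SE, adjusted p = 2.29e-15 by limma) in the first pair and 0.25 ± 0.15 (adjusted p = 0.178 by limma) in the second, and −0.36 ± 0.42 over all replicates. rRNA-20319 went with it on a smaller scale, with −0.29 in replicates 1 and 2 and 0.29 in replicates 3 and 4. The density ratio of rRNA-18130 to rRNA-20319 was 0.207, 0.233, 0.163 and 0.159 in upf1, and 0.342, 0.363, 0.171 and 0.159 in WT. The libraries with a high ratio were those with the most nuclear rRNA reads (2.17% and 1.71% in WT replicates 1 and 2). Among lower ratios that order did not always hold. The ratio was 0.233 at 0.133% nuclear rRNA in upf1 replicate 2, against 0.207 at 0.536% in upf1 replicate 1. The part of rRNA depletion in this difference was not tested.

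**Figure D4:**
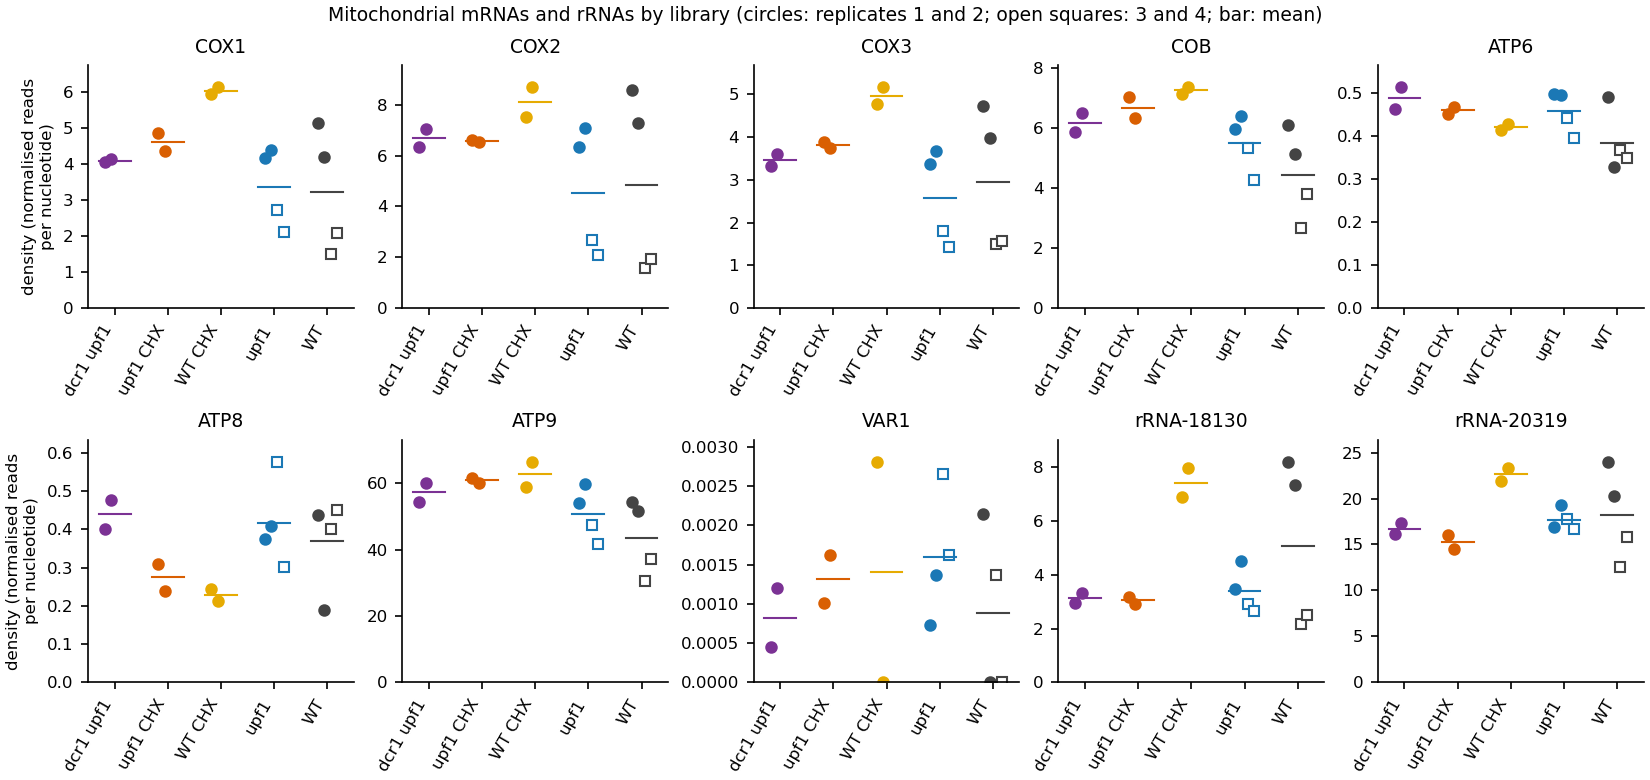
Density (normalised reads per nucleotide, linear axes from 0) of the 8 mitochondrial mRNAs and 2 rRNAs in every library, by group. Circles are replicates 1 and 2, open squares replicates 3 and 4, and bars the mean of each group. COX1, COX2, COX3 and rRNA-18130 in WT split by replicate pair, and rRNA-18130 in both WT CHX libraries (6.89 and 7.95) lies with WT replicates 1 and 2.

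With cycloheximide most features were higher on the deposited scaling, and the mitochondrial medians lay below the nuclear ones. In WT CHX against WT, 7 of 30 members were called higher and 0 lower, while 94.1% of all features were called higher and 0.146% lower. The mitochondrial mRNAs had a median log2 fold change of 0.77, against 1.35 for nuclear mRNAs, the tRNAs 0.59 against 1.31 for nuclear tRNAs, and the rRNAs 0.58 against 0.66. Relative to nuclear mRNAs instead, 0 members were called higher and 7 lower (35.2% and 20.4% of all features), since this scaling moves the median of nuclear mRNAs to 0.07. The median of the mitochondrial mRNAs was then −0.59, so its direction under the drug turns with the scaling. A scaling moves all genes of a library alike, so the order of the mitochondrial and nuclear medians is no separate evidence.

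Called higher on the deposited scaling were COB, COX1 and ATP9 and 4 tRNAs, and all of these had a negative log2 fold change relative to nuclear mRNAs, except tRNA-16936. COX1 had 5.94 and 6.13 reads per nucleotide in WT CHX, against 5.15, 4.21, 1.50 and 2.07 in WT, a log2 fold change of 1.07 ± 0.46 (SE, adjusted p = 0.0459 by limma). COB had 7.13 and 7.34 in WT CHX, against 6.10, 5.13, 2.67 and 3.81 in WT (0.77 ± 0.26, adjusted p = 0.0105 by limma). ATP9 had 58.9 and 66.6 in WT CHX, against 54.3, 51.7, 30.6 and 37.3 in WT (0.57 ± 0.20, adjusted p = 0.014 by limma). In each of these genes both WT CHX libraries lay above all 4 WT libraries, but only a little above WT replicates 1 and 2. COX2 (1.11 ± 0.75) and COX3 (0.94 ± 0.53) had similar fold changes and did not pass.

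The called tRNAs were tRNA-16936 (1.38), tRNA-17032 (0.91), tRNA-1936 (0.80) and tRNA-17279 (0.43). tRNA-17032 had 0.786 and 0.642 reads per nucleotide in WT CHX, against 0.396, 0.358, 0.409 and 0.317 in WT, with no overlap. The 3 largest tRNA fold changes were those of tRNA-16936, tRNA-2713 (1.27) and tRNA-2592 (0.91), and the 3 smallest those of tRNA-25248 (−0.23), tRNA-2251 (0.07) and tRNA-25470 (0.08). The count of 7 members called higher rests on single libraries: it was 13 without WT replicate 1, 4 without WT replicate 4, 4 without WT CHX replicate 1 and 0 without WT CHX replicate 2. It was 3 when the compared groups were fitted alone.

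ATP8 and ATP6, the low pair of ATP synthase mRNAs, had the smallest fold changes of the mRNAs over all replicates, whereas in replicates 1 and 2 alone ATP6 (0.07) lay above COX2 (0.03). ATP8 had 0.244 and 0.213 reads per nucleotide in WT CHX, against 0.438, 0.189, 0.400 and 0.450 in WT, a log2 fold change of −0.58 ± 0.31 (SE, adjusted p = 0.086 by limma). WT replicate 2 lies below both treated libraries, so the groups overlap. ATP8 had 26 and 21 reads in WT CHX, against 61, 27, 44 and 55 in WT. Its fold change, which did not pass, was lower than that of each of the 5439 nuclear mRNAs tested. ATP6, at 0.14 ± 0.15, lay above 0.386% of them. ATP6 had 0.414 and 0.428 in WT CHX, against 0.491, 0.328, 0.369 and 0.350 in WT. In level, ATP8 lay above 11.7% of nuclear mRNAs in WT CHX, against 61.5% in WT, and ATP6 above 25.9% in WT CHX, against 62.6% in WT.

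Replicates 1 and 2 alone gave a smaller change and a wider gap from the nuclear genes. The median log2 fold change of the mitochondrial mRNAs in WT CHX against WT was then 0.19, against 1.38 for nuclear mRNAs, and that of the tRNAs was 0.25, against 1.40. COB and COX1 had 0.37 each and ATP9 had 0.24, and all passed (adjusted p of 0.00157, 0.00162 and 0.0254 by limma). COX3 (0.19), ATP6 (0.07), COX2 (0.03) and ATP8 (−0.32) did not. Each of these 7 mRNAs lay above at most 1.42% of nuclear mRNAs in fold change. Within this pair 11 members were called higher and 0 lower, against 95.6% and 0.333% of all features, the others being tRNA-2251, tRNA-1936, tRNA-3153, tRNA-2592, tRNA-3292, tRNA-17279, tRNA-17032 and tRNA-16936. Some of these tRNA calls rest on a few reads. In WT CHX tRNA-3153 had 2 and 1 reads, against 1 and 1 in WT replicates 1 and 2. For tRNA-3292 the reads were 1 and 1, against 1 and 0, and for tRNA-2592 5 and 8, against 8 and 4. The rRNAs were at 0.04 for rRNA-20319 and −0.07 for rRNA-18130.

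The same drug was then compared in upf1 cells. In upf1 CHX against upf1, 0 of 30 members were called higher and 1, tRNA-2926, lower, while 84.4% of all features were called higher and 0.239% lower. The median log2 fold change was 0.30 for mitochondrial mRNAs, against 0.87 for nuclear ones, and 0.35 for tRNAs, against 0.84. tRNA-2926 (−0.94 ± 0.39, adjusted p = 0.0374 by limma) had 1 and 2 reads in upf1 CHX, against 5, 7, 6 and 1 in upf1, and the call was lost in voom and when either upf1 CHX library or any of upf1 replicates 1, 2 and 3 was left out. The 3 largest tRNA fold changes were those of tRNA-2713 (1.00), tRNA-9219 (0.95) and tRNA-16936 (0.77), and the other 2 of the 3 smallest were those of tRNA-24334 (−0.57) and tRNA-3153 (−0.27).

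Among the mRNAs of upf1 CHX against upf1, COX2 (0.72), COX3 (0.68) and COX1 (0.52) had the largest fold changes, COB (0.30) and ATP9 (0.28) smaller ones, ATP6 stood at 0.01 and ATP8 at −0.54. None passed. COX1 had 4.86 and 4.35 reads per nucleotide in upf1 CHX, against 4.17, 4.39, 2.72 and 2.13 in upf1. ATP8 had 0.310 and 0.239, against 0.376, 0.410, 0.577 and 0.303. ATP8 lay below all but 5 of the 5439 nuclear mRNAs in fold change here, on 46 and 44 reads in upf1 CHX, against 77, 90, 65 and 28 in upf1.

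In replicates 1 and 2 alone the mitochondrial mRNAs of upf1 CHX against upf1 had a median of 0.10, against 0.99 for nuclear mRNAs. In that pair 1 member was called higher (tRNA-17279, 0.29) and 6 lower, against 91.3% and 0.585% of all features. The lower ones were rRNA-18130 (−0.38), rRNA-20319 (−0.24), tRNA-2926, tRNA-3292, tRNA-3153 and tRNA-25139. The first 3 of those tRNAs had at most 9 reads in any library of these 4. Relative to nuclear mRNAs, over all replicates, 0 members were called higher and 8 lower (18.3% and 25.3% of all features). The plot of fold changes beside nuclear features shows the 2 treatments together.

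**Figure D5:**
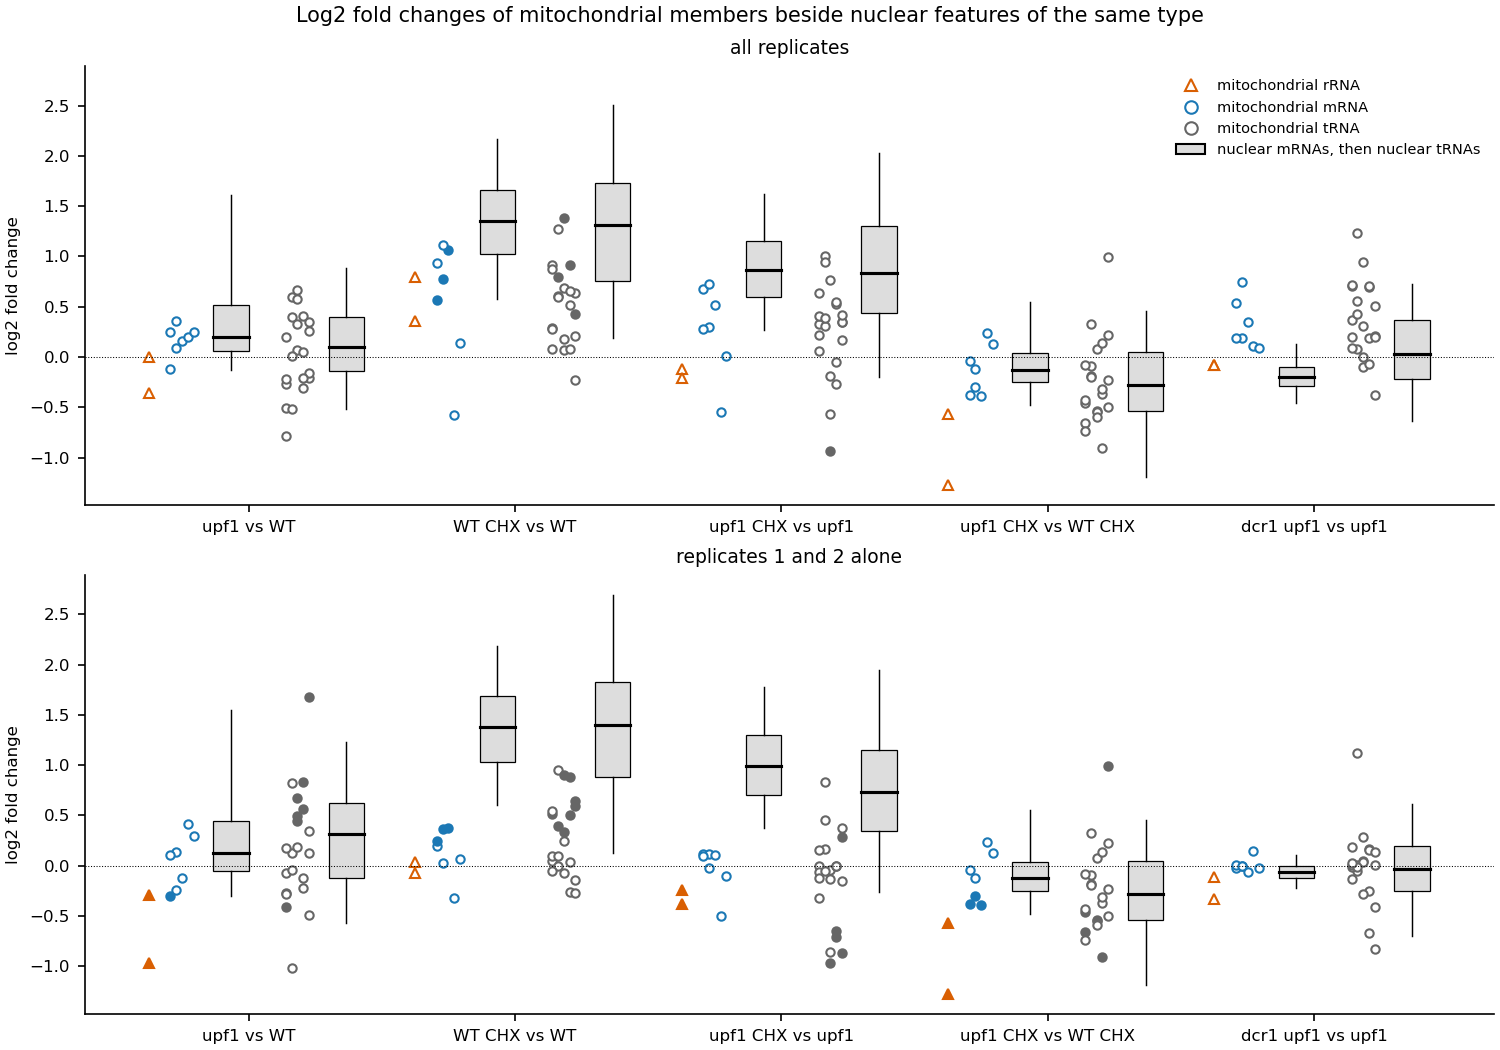
Log2 fold changes of mitochondrial rRNAs (triangles), mRNAs and tRNAs (circles) in 5 comparisons, with all replicates (top) and replicates 1 and 2 alone (bottom), on the deposited scaling. Filled symbols passed the adjusted p. Grey boxes give the quartiles and median of nuclear mRNAs, then nuclear tRNAs, with whiskers from the 5th to the 95th percentile. Under cycloheximide the mitochondrial mRNA median (0.77 in WT CHX against WT, 0.19 in replicates 1 and 2) lies below the nuclear one (1.35 and 1.38), and relative to nuclear mRNAs, over all replicates, the mitochondrial mRNA median in WT CHX against WT turns to −0.59.

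The treated strains were then compared with each other. In upf1 CHX against WT CHX none of the 30 members passed with the spread estimated over all 14 libraries, while 4.27% of all features were called higher and 0.984% lower, and 1 member had an unadjusted p under 0.05 (0 by voom). The largest difference was that of rRNA-18130, which had 3.19 and 2.90 reads per nucleotide in upf1 CHX, against 6.89 and 7.95 in WT CHX, with no overlap. Its log2 fold change was −1.28 ± 0.59 (SE, adjusted p = 0.296 by limma), and rRNA-20319 had 16.1 and 14.5 in upf1 CHX, against 21.9 and 23.3 in WT CHX (−0.57 ± 0.21, adjusted p = 0.157 by limma). Both passed once the replicate pairs had a term (adjusted p of 0.0389 and 0.0196 by limma, with 7.89% of all features higher and 4.97% lower) and in replicates 1 and 2 alone (5.93e-25 and 9.55e-06 by limma). With the replicate number as a block rRNA-20319 passed (adjusted p = 0.0191 by limma) and rRNA-18130 did not (adjusted p = 0.0895 by limma). Nuclear rRNA reads differed in the same direction, with 0.0649% and 0.0490% in upf1 CHX, against 0.796% and 0.707% in WT CHX, and the part of rRNA depletion was not tested.

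In replicates 1 and 2 alone 9 members were lower and 1 higher in upf1 CHX than in WT CHX, against 11.8% and 10.7% of all features. Besides the rRNAs, the lower ones were the 3 oxidase mRNAs, COX1 (−0.39), COX3 (−0.38) and COX2 (−0.30), and tRNA-25139, tRNA-2592, tRNA-16936 and tRNA-224. The higher one was tRNA-25248 (0.99), which has at most 3 reads in these 4 libraries. COB (−0.12), ATP9 (−0.04), ATP6 (0.12) and ATP8 (0.24) did not pass. The median of the mitochondrial mRNAs was −0.12, against −0.13 for nuclear mRNAs, and that of the tRNAs −0.31, against −0.28.

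Whether cycloheximide acted differently with and without Upf1 was tested by the interaction, the fold change in upf1 minus that in WT. None of the 30 members passed over all replicates (1 at an unadjusted p under 0.05, 0 by voom), while 0.0133% of all features were called higher and 21.4% lower. The median was −0.29 for mitochondrial mRNAs, against −0.38 for nuclear mRNAs. The largest negative values among tRNAs were those of tRNA-24334 (−1.26), tRNA-2926 (−1.11) and tRNA-2592 (−0.86). rRNA-18130 stood at −0.92 ± 0.72 and rRNA-20319 at −0.57 ± 0.26 (SE). With a term for the replicate pairs, rRNA-20319 passed (adjusted p = 0.0277 by limma) and was the 1 member lower and 0 were higher, against 35.4% and 0.106% of all features. In replicates 1 and 2 alone 6 tRNAs were lower and 0 members higher, against 26.6% and 0.253% of all features, and no mRNA or rRNA was called.

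Few features of any kind were called when Dcr1 was lost on top of Upf1. In dcr1 upf1 against upf1 none of the 30 members passed (1 at an unadjusted p under 0.05, 0 by voom). Over all features 0.333% were called higher and 0.173% lower, so a count of 0 is near the background. The mitochondrial mRNAs had a median of 0.19, against −0.20 for nuclear mRNAs. COX2 had the largest value, 0.75 ± 0.75 (log2, SE), with 6.33 and 7.05 reads per nucleotide in dcr1 upf1, against 6.32, 7.08, 2.67 and 2.08 in upf1. For COX2 the dcr1 upf1 libraries lay with upf1 replicates 1 and 2, and in those replicates alone 0 members passed (0.732% of all features higher, 0.452% lower), the median was −0.00 and COX2 stood at −0.00. The 3 largest tRNA fold changes over all replicates were those of tRNA-9219 (1.23), tRNA-16936 (0.94) and tRNA-17583 (0.72), and the 3 smallest those of tRNA-25248 (−0.37), tRNA-2251 (−0.10) and tRNA-25139 (−0.07).

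The nuclear genes that work with these members were set beside them in 8 lists of S. cerevisiae symbols, 175 genes of which 167 were found, and are given over all replicates. In WT CHX against WT, the nuclear subunits of complex III had 9 of 9 called higher, those of complex IV 8 of 8 and those of ATP synthase 13 of 14. Their medians on the log2 scale were 1.24, 1.33 and 0.86. The mitochondrial partners were COB at 0.77 in complex III, COX1, COX2 and COX3 at 0.94 to 1.11 in complex IV, and ATP6, ATP8 and ATP9 at −0.58 to 0.57 in ATP synthase. COX2, COX3, ATP6 and ATP8 did not pass. In replicates 1 and 2 alone the fold changes of COB, COX1, COX2, COX3 and ATP9 were much smaller, as given above. The values over all replicates therefore do not show that mitochondrial and nuclear subunits rose together. RIP1, the Rieske iron-sulphur protein of complex III, had 1.85, COX7 had 1.50, and TIM11, a subunit at the dimer interface of ATP synthase, had 1.39. Since 94.1% of all features were called higher, these counts are near the background.

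Genes for making and reading mitochondrial RNA were called higher in WT CHX at shares near the 94.1% of all features. All 9 of mitochondrial transcription and DNA upkeep, 19 of 19 of RNA processing, 14 of 14 translational activators, 21 of 21 translation factors and tRNA synthetases, and 72 of 73 mitochondrial ribosomal proteins were called higher. MSS18, named for a role in COX1 splicing in S. cerevisiae, had 2.36, and RPM2, the protein subunit of mitochondrial RNase P, had 1.91.

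In upf1 against WT, where no mitochondrial member passed with all replicates, parts of these lists did, against 40.5% of all features called higher. Higher were 5 of 9 in complex III, 6 of 8 in complex IV, 5 of 14 in ATP synthase, 3 of 9 in transcription and DNA upkeep, 10 of 19 in RNA processing, 6 of 14 translational activators, 11 of 21 translation factors and synthetases, and 8 of 73 mitochondrial ribosomal proteins, and none was lower. The largest changes were those of HMI1, a mitochondrial DNA helicase (1.70 ± 0.15, log2, SE), CBT1, a factor for COB mRNA processing in S. cerevisiae (1.23 ± 0.12), SLM3, a tRNA thiolation enzyme (1.13 ± 0.11), and FMT1, the initiator tRNA formylase (1.07 ± 0.10). HMI1 averaged 0.377 ± 0.092 in upf1, against 0.101 ± 0.022 in WT (SD, n = 4 each). In dcr1 upf1 against upf1 none of the 167 genes passed by limma, against 0.333% of all features higher and 0.173% lower, so a count of 0 is near the background.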

How the data were processed

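For 14 libraries the authors deposited a signal, the normalised density of reads over each feature. The submitters' processing notes list DESeq2, featureCounts 2.0.0, HISAT2 2.2.0 and Trim Galore without their roles. Per the labels' protocols rRNA was depleted and spike-in RNA added, which was not used here. Multiplied by length and divided by a step found for each library, all values were whole reads within 0.001, and the deposited size factors matched the median of ratios over 37 snoRNAs within 0.0315 on the log2 scale. Of 8602 lines, 259 repeats were left out. Tests used R 4.3.3, limma 3.58.1 and statmod 1.5.0 (eBayes with trend and robust) on log2(density + 0.02), for 7518 features with a mean density of at least 0.02, in 1 model of 5 group means with 9 residual degrees of freedom. Calls needed a Benjamini-Hochberg adjusted p under 0.05. Low features' changes are understated. Summaries used Python 3.11.15, pandas 2.3.3 and numpy 2.4.6. The fit was tested on simulated data. Every chrmt row may be named. tRNAs are named by the 3 largest and smallest changes per comparison and the 3 highest and lowest WT densities, and further ones where called. Nuclear genes are up to 3 called per list and comparison, of which the text gives some. The members are all rows on chrmt, but this set and the lists were taken up with earlier results of these data known. Same-numbered WT and upf1 libraries correlated at 0.365, 0.432, 0.209 and 0.354 in their deviations from group means. The main tests were not paired. The title numbers were taken as pairing only in the replicate block and in the differences of treated from untreated libraries of the same number. The closest partner carried the same number for only 3 of 8 libraries. It always lay in the same replicate pair (1 and 2, or 3 and 4), so these correlations do not establish pairing by number. Alternatives are in the closing section.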

Additional observations from a re-analysis of the deposited data

Results flagged for a closer look

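tRNA-3153 and tRNA-3292 were lower with cycloheximide in both upf1 replicates and higher in both WT replicates. For tRNA-3153 the log2 difference of treated from untreated libraries of the same number was −0.24 and −1.17 in upf1, against 0.76 and 0.25 in WT. The interaction was −0.7839 (log2, adjusted p = 0.421 by limma). For tRNA-3292 the differences were −1.04 and −0.68 in upf1, against 0.18 and 1.02 in WT, and the interaction was −0.03295 over all replicates (adjusted p = 0.978 by limma). Neither passed that test. tRNA-3153 had between 0 and 8 reads and tRNA-3292 between 0 and 9 reads in any library. None of 60 groups of 4 libraries (each tested member in upf1 and in WT) held a library set apart from the other 3 by Dixon's test.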

How the results depend on the processing

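Counts of members called higher, then lower, moved as follows from 0 and 0 in upf1 against WT: 6 and 4 in replicates 1 and 2 alone, 7 and 4 in replicates 3 and 4 alone, 5 higher with a term for the replicate pairs, and 2 and 5 lower under mRNA-ratio scaling and quantile normalization. From 7 and 0 in WT CHX against WT they moved to 0 and 7 under each of those scalings, 3 higher with the compared groups alone and 11 in replicates 1 and 2 alone. From 0 and 1 in upf1 CHX against upf1 they moved to 1 and 3 with the compared groups alone, 1 and 6 in replicates 1 and 2 alone, 1 and 2 with the pair term, 8 lower under mRNA-ratio scaling, 7 under quantile normalization, and 0 with a minimum density of 0.1 or by voom. In upf1 CHX against WT CHX 1 was higher and 12 lower with the compared groups alone, 1 and 9 in replicates 1 and 2 alone, and 2 lower with the pair term. In the first of these fits the prior degrees of freedom were finite for 11 of 30 members and infinite for the others. In the interaction 6 were lower in replicates 1 and 2 alone and 1 with the pair term. With the replicate block, from the numbers in the titles, 4 were higher in upf1 against WT, 1 higher and 2 lower in upf1 CHX against upf1, 1 and 1 in upf1 CHX against WT CHX, and 1 lower in the interaction, and the counts of the other comparisons stayed within 1.5 times. Leaving out single libraries gave 0 to 3 higher and 0 to 1 lower in upf1 against WT, 0 to 13 higher and 0 to 1 lower in WT CHX against WT, 0 to 2 of each in upf1 CHX against upf1, and 0 to 1 lower in the interaction. Pseudocounts of 0.1 and 0.005 gave 8 and 6 higher in WT CHX against WT, and these and no filter moved no other count. For several of these fits no share over all features is given. Among them are the compared groups alone, quantile normalization and the fits with a single library left out. Their counts show how far calls move and cannot be read as a result about mitochondrial genes.

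Of 4488 member values recomputed, 131 gained a call, 52 lost one and 30 reversed. The other 4275 kept their side of the threshold, most of them uncalled, and 349 values uncalled in both fits differed in sign. In WT CHX against WT, mRNA-ratio scaling turned tRNA-1936 (−0.54), tRNA-2251 (−1.28), COB (−0.59), COX1 (−0.29), ATP6 (−1.15), ATP9 (−0.80), tRNA-17032 (−0.40), tRNA-17279 (−0.91), rRNA-20319 (−1.01) and tRNA-25470 (−1.27), and quantile normalization turned tRNA-224 (−1.16), tRNA-1936 (−0.44), tRNA-2251 (−1.13), tRNA-2420 (−1.36), COB (−0.15), ATP6 (−1.30), tRNA-16936 (−0.15), tRNA-17032 (−0.51), tRNA-17279 (−0.79) and tRNA-25470 (−1.02). In upf1 CHX against upf1, mRNA-ratio scaling turned ATP6 (−0.92), ATP9 (−0.70), tRNA-17279 (−0.61) and tRNA-25470 (−0.74), quantile normalization turned ATP6 (−0.996) and tRNA-25470 (−0.54), and replicates 1 and 2 alone turned tRNA-3292 (−0.86). In upf1 against WT, replicates 3 and 4 alone turned tRNA-3292 (−1.17), tRNA-17032 (−0.47) and rRNA-20319 (0.29). Without rRNA rows, the mitochondrial share averaged 0.414% in dcr1 upf1, 0.259% in upf1 CHX, 0.274% in WT CHX, 0.310% in upf1 and 0.305% in WT. The cause was not tested. The planned count tests with edgeR and DESeq2 were not run, since the deposited densities are divided by length, and voom on the recovered reads took their place. The pair term, replicates 3 and 4 alone and voom were added after the data were seen. Depth limits the tRNAs and VAR1.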
